A study of Rattus norvegicus with 8 samples.

Results

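The genes described here encode the autophagy machinery and the lysosome, and 68 of the 14217 genes named on the array belonged to them. A rule on gene symbols defined them: the Atg, Gabarap, Map1lc3, Ulk and Wipi families with Becn1, Sqstm1 and Optn for autophagy (26 genes), the Lamp, cathepsin and vacuolar proton pump (Atp6v) families for the lysosome (40 genes), and the transcription factors Tfeb and Tfe3 (2 genes). Of the 100 probe sets that carried these symbols, the brightest over the 8 arrays stood for each gene. Livers came from male Sprague-Dawley rats, an outbred strain, aged 4 weeks at the start and 8 weeks at sampling. For 4 weeks the control group drank sterilized distilled water, and the other group drank hydrogen water, in which molecular hydrogen was dissolved at 0.7 mM. All animals ate the same commercial diet and drank freely. The design held 8 animals per group, and 4 arrays per group were analysed here. The labels do not tie an array to an animal or say whether RNA was pooled, so p-values measure only the spread between these arrays.

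Autophagy encloses portions of cytoplasm in a double membrane, the autophagosome, and delivers them to the lysosome, where acid hydrolases digest them. In liver it supplies amino acids, glucose and lipid during fasting, when nutrient-sensing kinases release the initiating complex from inhibition, and it clears damaged mitochondria, protein aggregates and glycogen. Much of its control acts on proteins, by phosphorylation, lipidation and turnover, which an array of transcripts does not measure. Transcripts of the pathway are raised by TFEB and TFE3, basic helix-loop-helix factors that enter the nucleus when mTORC1 at the lysosome is inactive and bind the CLEAR element, a CACGTG E-box in its preferred flanks.

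The RefSeq promoters of the GRCr8 assembly were searched for TCACGTGA, the palindromic CLEAR core, which reads the same on both strands. The element was already known from genes of this pathway, so its share among them is a description and no independent support. Each promoter spanned 250 bases before to 50 bases after the start of transcription, and 58 of the 68 genes had one. The core stood in 5 of these 58 promoters (8.62%) and in 238 of 27457 promoters in all (0.867%). It stood in 4 of 33 lysosomal promoters (12.1%) and 1 of 23 autophagy promoters (4.35%). The shorter E-box CACGTG, which every TCACGTGA contains, stood in 8 of 58 (13.8%) against 6.65% of all promoters. The matches are shown to place the motif on its genes. Each is written 5′ to 3′ on the strand of its gene, which was the minus strand each time, with the core in capitals.
Atg3, chr11:69159281-69159317, core starting 17 bases before the start: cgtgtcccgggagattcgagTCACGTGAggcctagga
Ctsd, chr1:206968822-206968852, core starting 11 bases before the start: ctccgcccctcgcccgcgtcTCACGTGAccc
Atp6v0d1, chr19:50357274-50357321, core starting 53 bases before the start: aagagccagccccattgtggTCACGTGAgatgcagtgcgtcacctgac
Lamp1, chr16:83075102-83075149, core starting 66 bases before the start: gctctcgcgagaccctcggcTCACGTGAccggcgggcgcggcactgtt
Lamp1, chr16:83075075-83075122, core starting 39 bases before the start: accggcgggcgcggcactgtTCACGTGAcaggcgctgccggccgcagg
Atp6v0e1, chr10:17007115-17007144, core starting 23 bases after the start: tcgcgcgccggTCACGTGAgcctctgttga
A match describes the letters of the window only, and no binding was measured here.

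None of the tested genes defined by the symbol rule passed the test between hydrogen water and control livers. Levels are given as log2 of the quantile-normalised signal plus a small pseudocount, and a difference is hydrogen water minus control on that scale. Of the 68 genes, 57 had a mean level at or above 4.425, the median over all probe sets, and were tested. Of these 57, 0 passed an adjusted p of 0.05 (limma, Benjamini-Hochberg over all 15521 probe sets tested), against 128 of the 15521 probe sets (0.825%). Leaving out control array 3 raised that background count to 197. Leaving out a single array among control 2, control 4, hydrogen water 1, hydrogen water 3 and hydrogen water 4 lowered it to between 55 and 71. An unadjusted p under 0.05 was reached by 5 of the 57 genes (8.77%) and by 12.5% of all probe sets. The groups did not overlap for 2 of the 57 (3.51%) and for 7.48% of all probe sets. With counts this small, nothing about these genes as a group is read from these shares.

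The differences were small in size. Over the 57 genes they ran from −0.34 for Atg4d to 0.50 for Ctsk with a median of 0.02, and the median over all probe sets was −0.00. A difference beyond 1.2-fold was measured for 7 of the 57 (12.3%) and for 24.8% of all probe sets. The 95% interval of the difference lay within 2-fold for 57 of 57 genes, against 91.8% of all probe sets, and within 1.5-fold for 48 of 57, against 61.7%. Over all genes taken in the same way, by their brightest probe set, 93.5% lay within 2-fold, 68.2% within 1.5-fold and 21.6% differed by more than 1.2-fold. Without normalisation between arrays the intervals of 50 of the 57 lay within 2-fold and of 11 within 1.5-fold. The widest bound reached 1.90-fold, for Ctsk. The median SD within a group was 0.153 over the 57 genes and 0.217 over all probe sets, so their median spread between arrays was lower. Single genes did not all follow that median, and their SD ran from 0.049 to 0.367. Most of these genes were bright, and 43 of the 57 stayed under a filter that left out the dimmest 75% of probe sets. No set of matched level was compared. The lower spread, the narrower intervals and the small differences are therefore not read as traits of these genes. The plot of differences by role shows each gene with its interval.

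**Figure D1:**
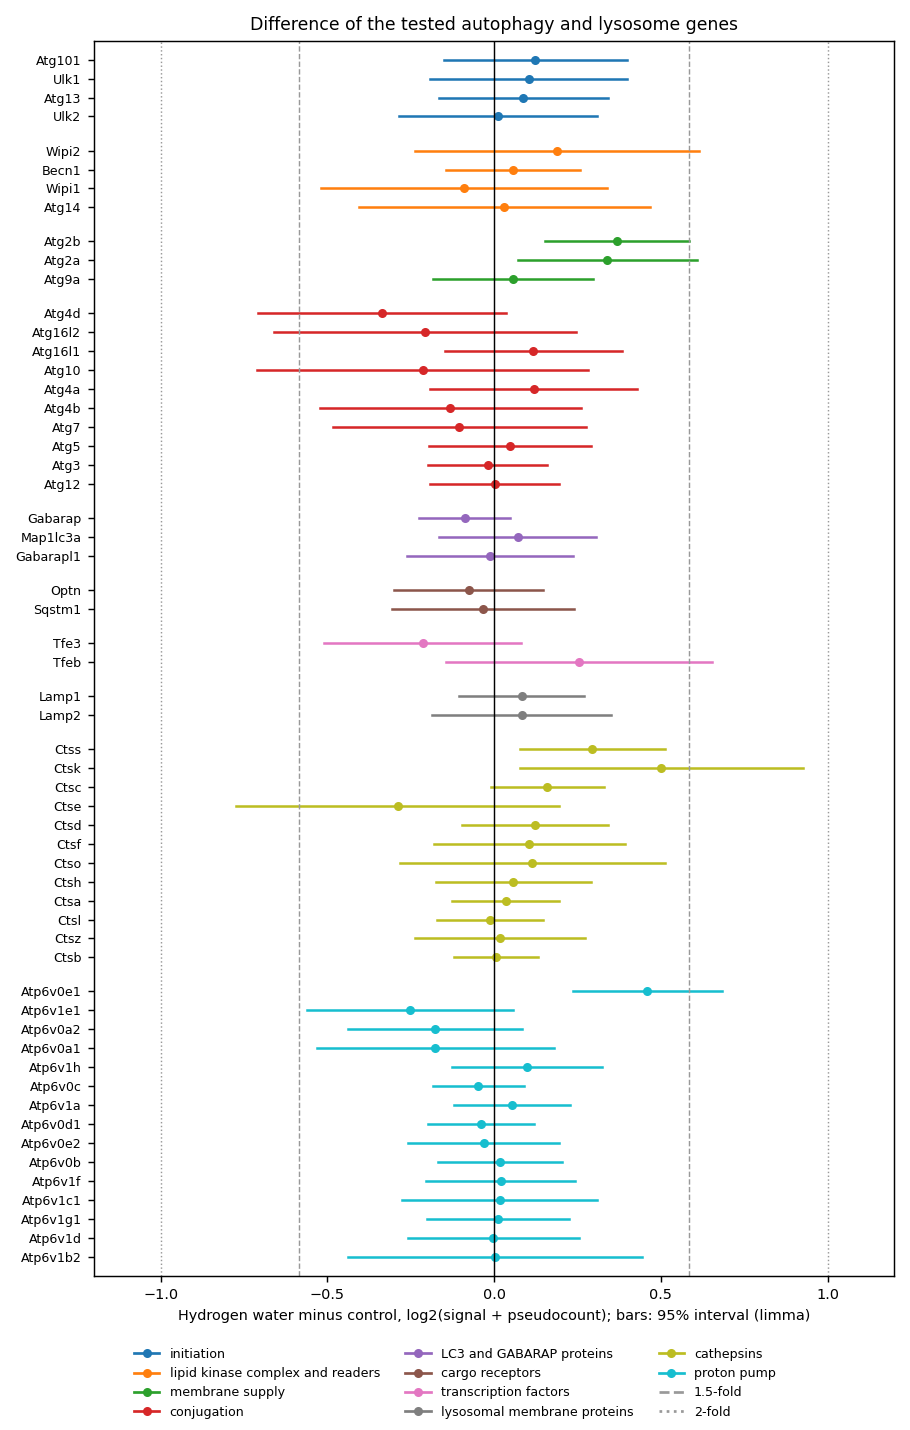
Difference between hydrogen water and control livers for the 57 tested autophagy and lysosome genes, grouped by role and ordered by p within each role; points are log2 differences, bars are 95% intervals from limma, dashed lines mark 1.5-fold and dotted lines 2-fold. Every bar ends inside the dotted lines, and the bars of 5 genes, Atg2b, Atg2a, Ctss, Ctsk and Atp6v0e1, do not reach 0.

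Autophagy and lysosomal genes gave medians of like size. The 26 autophagy genes had a median difference of 0.02, with 15 higher and 11 lower, and the 29 tested lysosomal genes a median of 0.02, with 20 higher and 9 lower. The mean of the autophagy genes per array, centred on each gene's mean, was −0.01 ± 0.05 (SD, n = 4) in control and 0.01 ± 0.03 (n = 4) in hydrogen water. For the lysosomal genes it was −0.02 ± 0.05 (n = 4) and 0.02 ± 0.03 (n = 4). In each case the groups differed by less than the SD of the control arrays.

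These directions depend on the scale of the arrays. The deposited signals carried no common scale: the 2% trimmed mean of an array was 115 ± 18.7 (SD, n = 4) in control and 91.5 ± 10.4 (n = 4) in hydrogen water. Quantile normalisation removed that difference, along with any shift of most transcripts together. Without it the median of all tested probe sets was −0.33, and 3 of the 57 genes were higher, while 39 of 57 lay above that median. Median centring gave 23 of 57 higher, cyclic loess 35, and scaling to spike-in probe sets 45. Each scaling also called its own probe sets. Of the 128 called after quantile normalisation 53.9% were higher, against 4.16% of the 505 called without normalisation, 29.4% of the 187 with median centring and 70.8% of the 144 with spike-in scaling. The log2 ratio of 3′ to 5′ Gapdh probe sets, a sign of RNA integrity and labelling, was 0.22 ± 0.10 (SD, n = 4) in control and 0.38 ± 0.08 (n = 4) in hydrogen water. The part of brightness and of RNA quality in the differences below was not tested beyond the fit that took brightness as a covariate, in which 0 of the 57 genes passed.

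Initiation of autophagy is set by the ULK kinases with their partners Atg13 and Atg101, and all 4 transcripts were measured, with differences from 0.01 to 0.12 and none past the test. Ulk1, the kinase that mTORC1 restrains, stood at 7.33, 7.55, 7.44 and 7.23 in control and 7.42, 7.25, 7.82 and 7.47 in hydrogen water. The groups overlapped widely, and the difference was 0.10 ± 0.13 (SE, adjusted p = 0.828). A second Ulk1 probe set gave 0.08 ± 0.15. Atg101 differed by 0.12 ± 0.12 and Atg13 by 0.09 ± 0.11. All 4 were higher on the normalised scale, and 0 of 4 without normalisation, though 3 of 4 lay above the median of all probe sets there.

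The lipid kinase complex marks the forming membrane with phosphatidylinositol 3-phosphate, which the Wipi proteins read. Becn1, the scaffold of that complex, stood at 8.45, 8.38, 8.35 and 8.37 in control and 8.50, 8.49, 8.25 and 8.53 in hydrogen water. Hydrogen water array 3 was the lowest of all 8 and the other hydrogen water arrays the highest, and the difference was 0.06 ± 0.09 (SE, adjusted p = 0.869). Atg14, which directs the complex to autophagy, differed by 0.03 ± 0.20. Wipi1 differed by −0.09 ± 0.19 and Wipi2 by 0.19 ± 0.19, and the control arrays were the more spread in each. Wipi2 stood at 7.62 and 7.55 in control arrays 1 and 3 and at 8.19 and 8.42 in control arrays 2 and 4, while the hydrogen water arrays lay between 7.96 and 8.42. Control arrays 1 and 3 were also the brightest, with trimmed means of 130 and 132 against 94.5 and 104 for the other control arrays. They had the lowest log2 ratios of 3′ to 5′ Gapdh as well, 0.14 and 0.15 against 0.34 and 0.26. Brightness and RNA quality therefore cannot be told apart in this split. Wipi1 did not follow that order, at 7.52, 7.11, 6.44 and 6.80 in control arrays 1 to 4.

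Membrane supply was the role with the largest median difference, 0.34 over 3 genes, though single genes of other roles differed by more. Atg2a and Atg2b carry lipid from the endoplasmic reticulum into the growing autophagosome, and Atg9a, a scramblase, provides its seed vesicles. Atg2b stood at 7.75, 7.60, 7.67 and 7.58 in control and 7.88, 8.08, 7.96 and 8.14 in hydrogen water. All hydrogen water arrays lay above all control arrays, by 0.37 ± 0.10 (SE, 95% interval 0.15 to 0.58), with an adjusted p of 0.118. A second tested probe set of Atg2b gave 0.34 ± 0.14 (adjusted p = 0.357). Of its probe sets under the filter, one gave 0.20 and the other −0.48, and the mean over all its probe sets gave 0.11 (adjusted p = 0.874).

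Atg2a stood at 7.00, 6.82, 6.61 and 6.58 in control and 7.10, 7.17, 7.11 and 6.99 in hydrogen water. The lowest hydrogen water array lay within the control range, just under control array 1, and the difference was 0.34 ± 0.12 (SE, adjusted p = 0.267). Without normalisation Atg2a differed by −0.02 and Atg2b by 0.02, against a median of −0.33 over all probe sets. Atg9a differed by 0.06 ± 0.11 on its brightest probe set and by 0.47 ± 0.19 (adjusted p = 0.325) on its other probe set, so its probe sets did not give 1 value. All 3 genes were higher on the normalised scale and 1 of 3 without normalisation, though 3 of 3 lay above the median of all probe sets there.

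**Figure D2:**
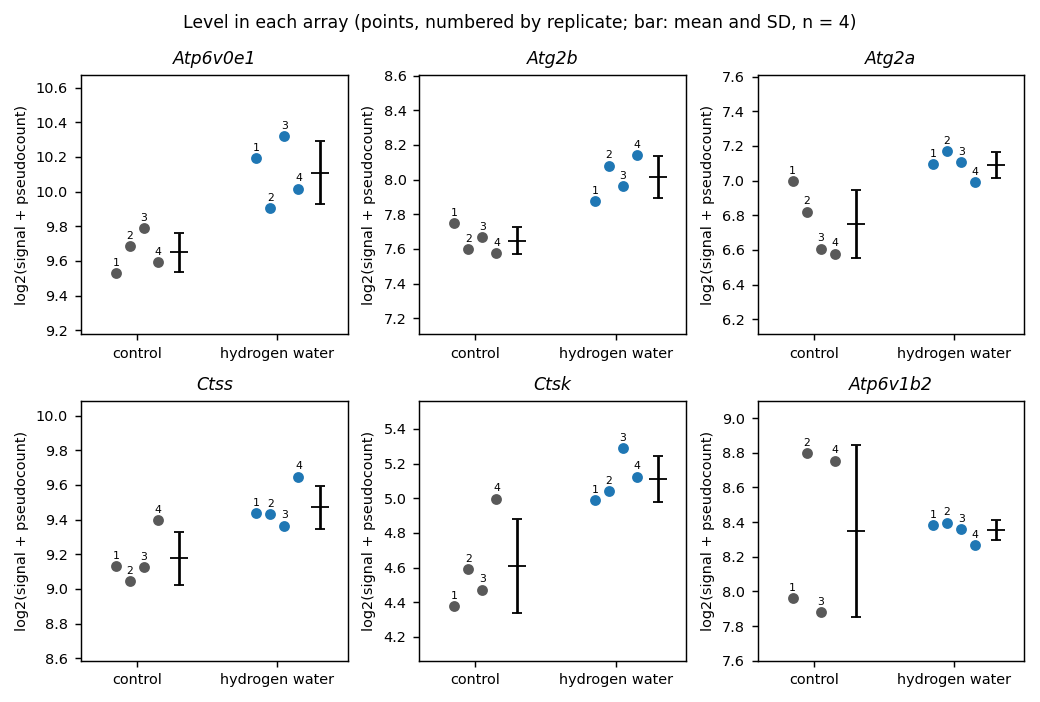
Level of 6 genes in each array, as log2 of the normalised signal plus pseudocount; grey points are control arrays and blue points hydrogen water arrays, numbered by replicate, and bars give the mean and SD (n = 4), with a separate range of levels on each vertical axis. The groups separate for Atp6v0e1 and Atg2b, touch for Atg2a, Ctss and Ctsk, and for Atp6v1b2 the control arrays fall in pairs on either side of the hydrogen water arrays.

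The conjugation genes attach LC3 and GABARAP proteins to the membrane lipid phosphatidylethanolamine, through the E1 enzyme Atg7, the E2 enzymes Atg3 and Atg10 and the Atg12-Atg5-Atg16l1 ligase, with the Atg4 proteases preparing and recycling the substrate. Of 10 genes 4 were higher and 6 lower, none past the test, with a median of −0.06. Without normalisation all 10 were lower, and 3 of 10 lay above the median of all probe sets there. With spike-in scaling 5 were higher. Atg7 stood at 5.07, 5.33, 5.33 and 5.02 in control and 5.30, 5.16, 4.82 and 5.07 in hydrogen water. The groups overlapped in part, with a difference of −0.10 ± 0.17 (SE, adjusted p = 0.870). Its other tested probe set gave −0.05 ± 0.21. The smallest p of the role was that of Atg4d, at −0.34 ± 0.17 (adjusted p = 0.457), followed by Atg16l2 at −0.21 ± 0.21, Atg16l1 at 0.12 ± 0.12 and Atg10 at −0.21 ± 0.23. Atg12 differed by 0.00 ± 0.09 and Atg3, whose promoter held the CLEAR core, by −0.02 ± 0.08. On their chosen probe sets these were among the most closely bounded genes. The other tested probe sets of Atg12 gave −0.002 ± 0.127 and −0.160 ± 0.135. Atg10 had the widest spread of the 57, with an SD within groups of 0.367.

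The LC3 and GABARAP proteins coat the autophagosome and recruit its cargo. Single-symbol probe sets measured 3 of them, and Map1lc3b was not analysed here. Gabarapl1 stood at 10.12, 10.23, 10.10 and 10.49 in control and 10.20, 10.38, 9.97 and 10.35 in hydrogen water, with a difference of −0.01 ± 0.11 (SE, adjusted p = 0.983). Its second probe set gave 0.01 ± 0.15. Gabarap differed by −0.09 ± 0.06 and Map1lc3a by 0.07 ± 0.11, the latter with 1 array, hydrogen water array 4, above all others. On the normalised scale 1 of the 3 was higher, against 3 with spike-in scaling and 0 with median centring.

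Sqstm1, the p62 receptor that links ubiquitinated cargo to LC3, stood at 10.97, 11.05, 10.63 and 11.03 in control and 11.11, 11.03, 10.61 and 10.78 in hydrogen water. Array 3 of each group was the lowest of its group, the groups overlapped, and the difference was −0.03 ± 0.12 (SE, adjusted p = 0.954). A second tested probe set gave 0.11 ± 0.19. Optn, a receptor for damaged mitochondria and bacteria, differed by −0.08 ± 0.10. Both were lower on the normalised scale and 1 of the 2 with spike-in or trimmed mean scaling.

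Tfeb, the regulator of the lysosomal programme, stood at 5.66, 5.50, 5.35 and 4.93 in control and 5.67, 5.66, 5.39 and 5.73 in hydrogen water. Control array 4 was the lowest, 3 of 4 hydrogen water arrays lay above the control median, and the difference was 0.25 ± 0.18 (SE, adjusted p = 0.641). Its relative Tfe3 differed by −0.21 ± 0.13 (adjusted p = 0.581), with 0 of 4 hydrogen water arrays above the control median. Without normalisation both were lower, and 1 of the 2 lay above the median of all probe sets.

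Lamp1 and Lamp2, the heavily glycosylated proteins that line the lysosomal membrane, did not pass the test. Lamp1 stood at 10.39, 10.06, 10.25 and 10.27 in control and 10.33, 10.20, 10.35 and 10.42 in hydrogen water, a difference of 0.08 ± 0.08 (SE, adjusted p = 0.772). Lamp2 stood at 11.92, 11.36, 11.80 and 11.98 in control and 11.70, 11.95, 11.82 and 11.93 in hydrogen water, a difference of 0.08 ± 0.12 (adjusted p = 0.854). In each the hydrogen water arrays lay within or near the control range, and control array 2 was the lowest. Both were higher on the normalised scale and both lower without normalisation, though 2 of 2 lay above the median of all probe sets there. Lamp3, known from maturing dendritic cells and lung, had a mean of 2.096, under the filter.

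Cathepsins are the lysosome's proteases, and 12 of 17 were tested. None passed, 10 were higher and 2 lower, and the median difference was 0.08. Without normalisation 1 of 12 was higher, and 11 of 12 lay above the median of all probe sets; with brightness as a covariate 8 were higher. Cathepsins B, D and L are the main cysteine and aspartic proteases of the hepatocyte lysosome. Ctsb stood at 11.37, 11.33, 11.46 and 11.40 in control and 11.36, 11.39, 11.46 and 11.37 in hydrogen water, with a difference of 0.01 ± 0.06 (SE, 95% interval −0.12 to 0.13), among the most tightly measured of these genes. Ctsl stood at 12.19, 12.33, 12.28 and 12.46 in control and 12.27, 12.36, 12.18 and 12.40 in hydrogen water, with a difference of −0.01 ± 0.07 (adjusted p = 0.977). Its second probe set gave 0.12 ± 0.12. Ctsd, with a CLEAR core at its start, stood at 9.27, 9.48, 9.26 and 9.59 in control and 9.63, 9.60, 9.40 and 9.45 in hydrogen water. All 4 hydrogen water arrays lay above the control median, but the groups overlapped, with a difference of 0.12 ± 0.10 (adjusted p = 0.698).

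The larger differences were those of cathepsins S and K, proteases known from antigen-presenting cells and from osteoclasts. Ctss stood at 9.13, 9.04, 9.13 and 9.40 in control and 9.44, 9.43, 9.36 and 9.65 in hydrogen water. Control array 4 lay within the hydrogen water range and the other control arrays below it, and the difference was 0.29 ± 0.10 (SE, adjusted p = 0.230); without normalisation it was −0.03. Ctsk stood at 4.377, 4.591, 4.473 and 4.998 in control and 4.989, 5.040, 5.288 and 5.125 in hydrogen water, again with control array 4 touching the other group. Its difference was 0.50 ± 0.19 (adjusted p = 0.307), at a mean level of 4.860, close to the filter. Ctsc, the dipeptidyl peptidase that activates granule proteases, differed by 0.16 ± 0.08 (adjusted p = 0.435) and Ctse, an aspartic protease of endosomes, by −0.29 ± 0.22. Ctsa, Ctsf, Ctsh, Ctso and Ctsz differed by 0.02 to 0.11.

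Kupffer cells, the liver's macrophages, hold many lysosomes, and in whole liver a change in the number of such cells and a change in RNA per cell cannot be told apart. Of 15 listed macrophage markers 12 had a probe set with a single symbol, and all 12 were tested. Of these 7 were higher and 5 lower, with a median of 0.04 and none past the test. Their summed signal ran from 5221 to 7120 in control and from 5455 to 6475 in hydrogen water. The mean of these markers per array, centred on each gene, was 0.00 ± 0.20 (SD, n = 4) in control and −0.00 ± 0.11 (n = 4) in hydrogen water. It was highest in control array 4, at 0.27, the control array in which Ctss and Ctsk were also highest. Among the hydrogen water arrays it was highest in array 2, at 0.11, and lowest in array 3, at −0.13. In that group Ctsk was highest in array 3, and Ctss was highest in array 4 and lowest in array 3. The smallest p was that of Lyz2, lysozyme, at −0.41 ± 0.15 (SE, adjusted p = 0.268). Next by p were Mrc1, C1qb and C1qc, at 0.12, 0.15 and 0.11. The Kupffer markers Clec4f and Cd163 differed by 0.12 and 0.12, and the macrophage markers Aif1 and Adgre1 by −0.17 and −0.12. The sinusoidal endothelial scavenger receptors Stab2 and Lyve1 differed by 0.42 ± 0.13 and 0.38 ± 0.13 (adjusted p = 0.205 and 0.234), while the related Stab1 differed by −0.24 ± 0.16 (adjusted p = 0.613). Of the 7 endothelial markers 3 were higher and 4 lower, with a median of −0.04. The part of macrophage and endothelial cells in the cathepsin differences was not tested. Hepatocyte markers dominated, with a summed signal of 76130 to 81286 in control and 77761 to 81061 in hydrogen water.

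The vacuolar proton pump acidifies the lysosome, its V1 sector splitting ATP and its V0 sector carrying protons through the membrane. Of 20 subunits 15 were tested, 8 higher and 7 lower, with a median of 0.00. Without normalisation 1 was higher, though 10 of 15 lay above the median of all probe sets there. With median centring 2 were higher and with spike-in scaling 12. Atp6v0e1, a small membrane subunit of V0, had the smallest p of the 57 genes. It stood at 9.53, 9.69, 9.79 and 9.59 in control and 10.20, 9.91, 10.32 and 10.02 in hydrogen water. All hydrogen water arrays lay above all control arrays, with a difference of 0.46 ± 0.10 (SE, 95% interval 0.24 to 0.68, 1.38-fold) and an adjusted p of 0.0675. Hydrogen water array 2 was the nearest to the control range, and without that array the difference was 0.53 (adjusted p = 0.0428). The other fits that left out an array gave adjusted p from 0.0559 to 0.167. With spike-in scaling the difference was 0.54 (adjusted p = 0.0390), with median centring 0.41 (0.142), with brightness as a covariate 0.37 (0.394) and without normalisation 0.15 (0.505). Its only probe set is of the kind whose probes can bind several transcripts of the gene.

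The other pump subunits did not follow Atp6v0e1 in size. Its paralogue Atp6v0e2 differed by −0.03 ± 0.10, and the V0 subunits Atp6v0b, Atp6v0c and Atp6v0d1 by 0.02, −0.05 and −0.04. The other tested probe set of Atp6v0b gave 0.21 ± 0.17. Atp6v1e1, of the stalk of V1, had the next smallest p at −0.25 ± 0.14 (SE, adjusted p = 0.520), and the V0 subunits Atp6v0a2 and Atp6v0a1 differed by −0.18 ± 0.12 and −0.18 ± 0.16. Atp6v1b2, the catalytic sector's B subunit in liver, had equal means, 8.350 in control and 8.353 in hydrogen water, over very unequal spreads. It stood at 7.96, 8.80, 7.88 and 8.76 in control and 8.38, 8.40, 8.36 and 8.27 in hydrogen water. Control arrays 1 and 3 were low and control arrays 2 and 4 high, as for Wipi2 but not for Wipi1. Control arrays 1 and 3 were the brightest and had the lowest Gapdh ratios. A second Atp6v1b2 probe set showed the same order of control arrays, at 7.90, 8.30, 7.72 and 8.26. The 5 genes with a CLEAR core differed by −0.04 to 0.46, from Atp6v0d1 to Atp6v0e1, with Lamp1, Ctsd and Atg3 between.

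**Figure D3:**
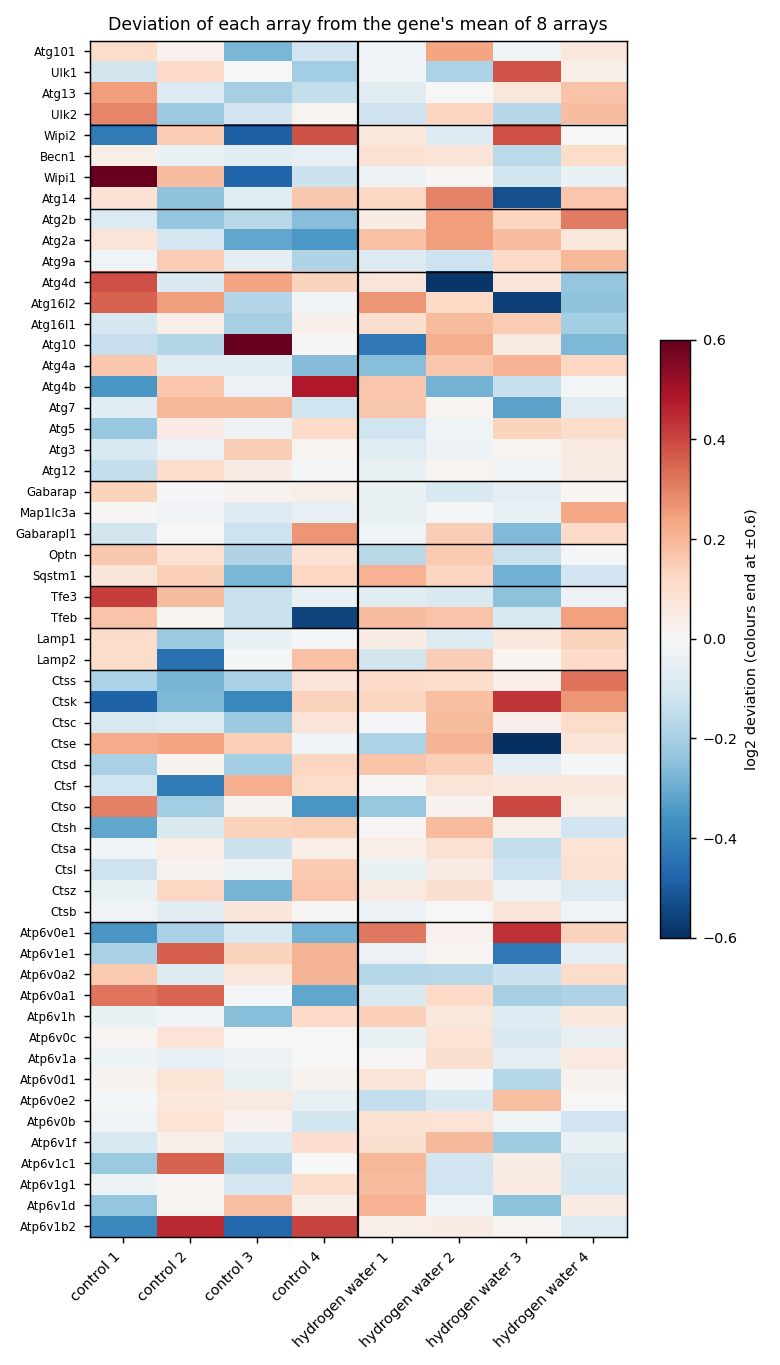
Deviation of each array from a gene's mean over 8 arrays, on the log2 scale, for the 57 tested genes in order of role, with control arrays left of the vertical line and hydrogen water arrays right of it; red is above and blue below the mean. No block of rows is of 1 colour on each side of the line, and the strongest colours are single arrays, such as control array 1 for Wipi1 and control array 3 for Atg10, or the alternating control arrays of Wipi2 and Atp6v1b2.

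The 11 genes under the filter were all lysosomal and are mostly known from other tissues. They were the placental cathepsins Ctsj, Ctsm, Ctsq and Ctsr, the lymphocyte cathepsin Ctsw, Lamp3, and the pump subunits Atp6v0a4, Atp6v1b1, Atp6v1c2, Atp6v1g2 and Atp6v1g3, several of which serve kidney or neurons. The highest mean among them was 4.051, for Atp6v1c2. No detection calls were among the data used here, so these levels cannot be set apart from background, and no difference is given for them. The 57 tested genes began at 4.766, with Ctse the nearest above the filter. Across the genes with more than 1 probe set, 21 further probe sets could be tested beside the chosen one. Of these 13 had the same sign of difference, 0 passed the test and 2 had an unadjusted p under 0.05, those of Atg2b and Atg9a.

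Other genes of the pathway, listed by role, were read from the same fit, and transcripts passed the test in 2 of the 6 lists. The smallest p values in these lists were those of the cargo receptors Retreg1 and Stbd1, which differed in opposite directions. Retreg1, also known as FAM134B, a receptor that feeds endoplasmic reticulum to autophagy, stood at 8.71, 8.78, 9.30 and 8.98 in control and 10.52, 10.01, 10.90 and 10.40 in hydrogen water. All hydrogen water arrays lay well above all control arrays, and the transcript rose by 1.52 ± 0.18 (SE, 2.86-fold, adjusted p = 0.00543). Stbd1, which binds glycogen and brings it to the lysosome, stood at 8.98, 8.71, 9.40 and 8.93 in control and 7.80, 8.17, 8.02 and 7.72 in hydrogen water. The groups lay apart in the other direction, and it fell by 1.08 on the log2 scale, with an SE of 0.15 (2.12-fold, adjusted p = 0.0110). With array brightness as a covariate Retreg1 differed by 1.47 (adjusted p = 0.0715) and Stbd1 by −0.87 (adjusted p = 0.134); every fit that left out 1 array kept both past the threshold.

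The rest of the 15 tested cargo receptors were less different, with 2 of 15 past the test in all, 1 up and 1 down, 10 higher and 5 lower and a median of 0.08. Over all probe sets 0.825% passed. Nothing about cargo receptors or any other list as a group is read from such counts. All the lists were drawn up with earlier results of these data known. Tax1bp1, a receptor for ubiquitinated cargo, stood above control in each hydrogen water array, by 0.27 ± 0.07 (SE, adjusted p = 0.0917). Rtn3, a receptor for tubules of the endoplasmic reticulum, also did so, by 0.27 ± 0.07 (adjusted p = 0.129). The receptors of mitochondria Bnip3, Bnip3l, Fundc1 and Phb2 did not pass. The plot of cargo receptors sets Sqstm1 and Optn beside them.

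**Figure D4:**
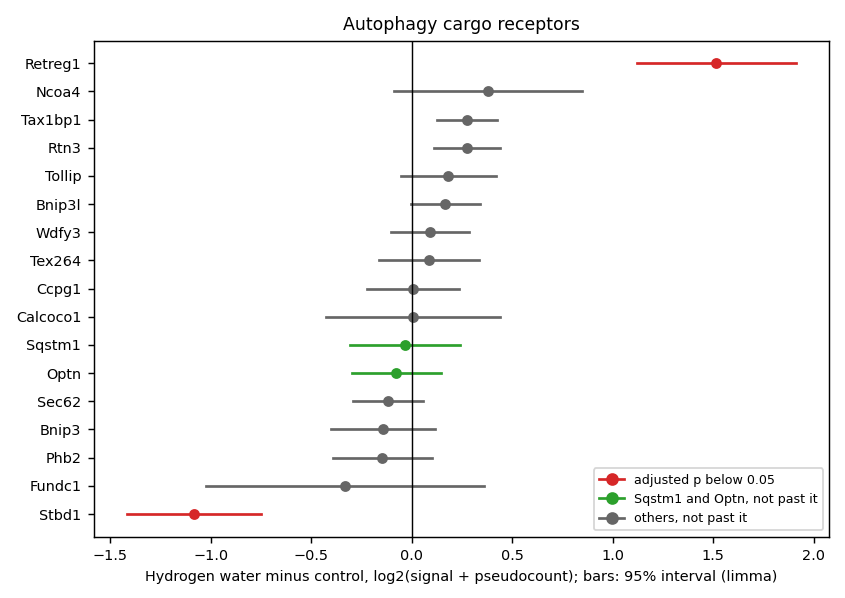
Difference between hydrogen water and control livers for the autophagy cargo receptors, with points as log2 differences and bars as 95% intervals from limma; red marks an adjusted p below 0.05, green the receptors Sqstm1 and Optn, grey the others. Retreg1 at 1.52 and Stbd1 at −1.08 stand apart from the others, and the bars of Sqstm1 and Optn include 0.

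Nutrient control of autophagy, the mTORC1, AMPK and FOXO genes, had 1 of 26 tested genes past the test, a rise, against 0.825% of all probe sets. Foxo1, a factor that insulin keeps out of the nucleus and that raises genes of fasting, stood at 7.05, 6.99, 7.83 and 6.93 in control and 8.47, 8.05, 8.61 and 8.09 in hydrogen water. All hydrogen water arrays lay above all control arrays, and it rose by 1.10 ± 0.21 (SE, adjusted p = 0.0354). Among the 8 leave-one-out fits, the call was kept without control array 3 (adjusted p = 0.00347) and without hydrogen water array 2 (0.0404), and the adjusted p was 0.0675 to 0.109 in the other 6. With all arrays it was lost with brightness as a covariate (adjusted p = 0.162), without normalisation (0.75, adjusted p = 0.0780), without a trend in the prior (adjusted p = 0.0842) and with the mean over its probe sets (0.73, adjusted p = 0.166). The next smallest p values were those of Sesn2, a stress-induced inhibitor of mTORC1, at 0.94 ± 0.27 (adjusted p = 0.150), and Foxo3, at −0.39 ± 0.15 (adjusted p = 0.295). Of the 26, 11 were higher and 15 lower, with a median of −0.02.

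None of the remaining 4 lists held a gene past the test. Autophagy regulators had 9 higher and 6 lower of 15, with Tmem41b, a lipid scramblase of the endoplasmic reticulum, first by p at 0.30 ± 0.11 (adjusted p = 0.276), then Tecpr1 at −0.32 and the lipid kinase Pik3c3 at −0.29. Lysosomal hydrolases had 17 higher and 15 lower of 32. Acp5, an acid phosphatase of macrophages and osteoclasts, was lower in each hydrogen water array by −0.44 ± 0.11 (adjusted p = 0.0924), and Lipa, the acid lipase that frees cholesterol and fatty acids, by −0.25 ± 0.07 (adjusted p = 0.160). Lysosomal membrane proteins and activators had 8 higher and 12 lower of 20, led by the tetraspanin Cd63 at −0.30 and the cystine exporter Ctns at 0.50. Genes that deliver hydrolases had 13 higher and 9 lower of 22, led by the sorting receptor Sort1 at 0.39 ± 0.14 (adjusted p = 0.258) and the tethering subunit Vps11 at 0.26 ± 0.11.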

How the data were processed

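Biotin-labelled cRNA from rat liver was hybridised to 8 oligonucleotide arrays, 4 control and 4 hydrogen water. The deposited values are intensities on a linear scale, made by the authors with MAS5 per the submitters' processing notes; the sources used here do not give its version or scaling target. Control probe sets were left out, signals were quantile-normalised, a pseudocount of 2.05 (10% of the median, 20.5) was added and log2 taken, so differences of dim probe sets are understated. The 15521 of 31042 probe sets with a mean at or above the median were compared with limma 3.58.1 (lmFit, eBayes with trend, R 4.3.3) and Benjamini-Hochberg adjustment, and each SE and interval comes from that fit. The number of arrays limits the precision. The fit was tested on simulated data.

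Names came from the platform annotation and matched RefSeq by Entrez ID for 68 of 68 genes. Probe sets with several symbols were not used, and 4 of those carried a symbol of these families. The members and the gene lists were chosen with earlier results of these data known. Values in every array are given for the 5 genes with the smallest p and for a fixed set of core genes. They are also given for list genes past the threshold. Most others are named in order of p, but some macrophage markers and cargo receptors are not. Wipi2, Atp6v1b2 and the further examples within a role were chosen after their values were seen. Alternatives were other scalings, pseudocounts, filters, variance priors, array weights, a replicate block, brightness as a covariate, gene means, a threshold of 0.10 and leaving out each array. Trimmed mean and spike-in scaling were chosen after seeing the data.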

Additional observations from a re-analysis of the deposited data

Results flagged for a closer look

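In 5 of 114 groups of 4 arrays, over the 57 tested genes, 1 array stood apart from the other 3 by Dixon's ratio, the gap to the nearest array over the whole range, above its 95% critical value. Chance alone passes this level in about 5% of groups, which is close to the share seen. The ratio was 0.833 for Sqstm1 in control, where array 3 was low at 10.63. It was 0.857 for Map1lc3a in hydrogen water, where array 4 was high at 7.06, and 0.888 for Becn1 in hydrogen water, where array 3 was low at 8.25. It was 0.84 for Atp6v1e1 in hydrogen water, where array 3 was low at 7.68, and 0.849 for Atp6v0a2 in hydrogen water, where array 4 was high at 6.68. None of these genes passed the test with all 8 arrays.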

How the results depend on the processing

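The 128 probe sets called became 505 without normalisation, 64 without a trend in the prior, 12 with brightness as a covariate and 353 at a threshold of 0.10, and 55 to 197 when an array was left out (55 without hydrogen water array 3, 197 without control array 3). Of the genes defined by the symbol rule, only Atp6v0e1 was called under any alternative. Their count was 1 at the threshold of 0.10 (0.46, adjusted p = 0.0675), 1 with spike-in scaling (0.54) and 0 to 1 when an array was left out. The autophagy median was −0.31 without normalisation, −0.0532 with median centring and 0.0717 with spike-in scaling, and the lysosomal median −0.28 without normalisation, −0.0287 with the covariate and 0.11 with spike-in scaling. The autophagy minus lysosome median was 0.0029 and ran from −0.0546 (without hydrogen water array 4) to 0.0581 (without control array 1). Without normalisation Ctss (−0.0331) and Atg2a (−0.0204) changed sign, where the median of all probe sets was −0.33. The intervals within 1.5-fold fell from 48 to 11 of 57 genes without normalisation and to 33 with the covariate; within 2-fold they were 50 and 57. Replicate numbers are shared between groups, and they were not taken as pairs. Deviations from the group mean correlated at −0.10 to 0.19 for same-numbered arrays and at −0.19 to 0.13 for the others. With 4 arrays per group these values cannot decide whether the numbers mark pairs. The replicate block called 181 probe sets and 0 of these genes.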
